A study of Mus musculus with 27 samples.

Results

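The regions described here are internal alternative promoters of protein-coding genes. Each is a stretch of chromatin with methylated histone H3 lysine 4 (H3K4) that holds the transcription start site (TSS) of a coding transcript but, for no gene, the most upstream TSS of that gene. They were found in the authors' deposited list of merged H3K4me1, H3K4me2 and H3K4me3 peaks by their annotation (GENCODE vM1 on mouse assembly NCBIM37, also called mm9) and by a width of at least 1000 and under 8000 bp. Of 358833 merged regions, 80022 had such a width, and 1627 of these were internal promoters. They belonged to 1398 of 22372 annotated coding genes (6.25%), and a region shared by 2 genes brought the number of region-gene pairs to 1628. For comparison, 10054 regions of the same width were main promoters, which hold the most upstream TSS of exactly 1 coding gene.

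The study asked where H3K4 methylation is reduced when *Kmt2d*, which encodes an H3K4 methyltransferase, is deleted in the myocardium, and performed ChIP-Seq for the 3 marks on whole mouse hearts at embryonic day E11.5. Control embryos were *Tnnt2::Cre;Kmt2d fl/+;mTmG/+* and mutant embryos were *Tnnt2::Cre;Kmt2d fl/fl;mTmG/+*, both of the C57BL/6 strain, so that both carried the *Tnnt2::Cre* transgene, whose promoter is active in cardiomyocytes, and a copy of the mTmG Cre reporter. The controls can therefore lose 1 *Kmt2d* copy in the same cells in which the mutants lose both. Each genotype and antibody had 3 libraries, each made from a pool of 30 hearts, and from the merged peaks the authors called regions with lower H3K4me1 and regions with lower H3K4me2 in mutant hearts at a false discovery rate below 0.1. These calls are referred to as H3K4me1-decreased and H3K4me2-decreased.

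The deposited lists hold coordinates and no counts, scores or replicate values. The read depth of a region is unknown, no difference could be set against the spread between pools, and no test was made. The merged list also does not tell which of the methylation marks a region carries. Shares for a mark, and contrasts between them, are therefore over regions in some of which that mark may be absent. How far this shapes the differences between classes of promoter was not tested. A region outside a decreased list may still have changed, and a wide or strongly marked region is easier to call. Whole hearts also hold cells without *Tnnt2::Cre*, and a loss in fewer cells and a smaller loss per cell cannot be told apart. Of 12 cardiomyocyte marker genes, 12 had their most upstream TSS in a merged region, as did 10 of 13 endothelial, 11 of 11 epicardial and mesenchymal and 4 of 8 annotated blood markers. Over all coding genes the count was 15099 of 22372 (67.5%), so these small counts do not set a cell type apart. Intervals are 95% Wilson intervals for counting error only, and regions of the same gene are not independent of each other.

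Many mammalian genes are transcribed from more than 1 promoter. A promoter inside a gene starts a transcript with its own first exon, which can remove the amino-terminal part of the protein or place the same protein under another tissue's control. H3K4me3 marks active start sites, H3K4me1 marks enhancers and the flanks of promoters, and H3K4me2 is found at both. Most broadly used promoters lie in CpG islands, stretches in which the dinucleotide CpG has not been depleted, whereas CpG-poor promoters are often restricted to a few tissues.

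The internal promoters differed widely in CpG content, and the 150 bases before the TSS of 7 genes with a decreased internal promoter show this range. They were read from NCBIM37 on the coding strand, 5′ to 3′, with each CpG in capitals, and none overlaps an annotated exon. *Runx1*, a transcription factor of blood development with a distal and a proximal promoter, and *Camk2b*, a calcium/calmodulin-dependent kinase, are shown with both their internal and their most upstream promoter because the CpG content ran opposite ways. At *Runx1* the internal promoter (chr16:92697574-92697723, minus strand) had 12 CpG and the most upstream promoter (chr16:92826312-92826461) had 2. At *Camk2b* the internal promoter (chr11:5900453-5900602, minus strand) had 1 CpG and the most upstream promoter (chr11:5965752-5965901) had 27. The *Runx1* internal promoter was H3K4me2-decreased and that of *Camk2b* was H3K4me1-decreased, and neither upstream promoter was in a list.
Runx1 internal: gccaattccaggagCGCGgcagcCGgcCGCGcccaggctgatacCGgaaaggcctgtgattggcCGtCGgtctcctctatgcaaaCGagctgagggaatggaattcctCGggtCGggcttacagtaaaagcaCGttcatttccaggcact
Runx1 most upstream: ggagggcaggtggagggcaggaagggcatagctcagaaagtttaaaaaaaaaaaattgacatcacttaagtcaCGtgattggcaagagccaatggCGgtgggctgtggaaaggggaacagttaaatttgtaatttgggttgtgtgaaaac
Camk2b internal: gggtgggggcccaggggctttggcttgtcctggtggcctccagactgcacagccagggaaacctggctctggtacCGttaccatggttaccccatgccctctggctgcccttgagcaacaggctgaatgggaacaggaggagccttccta
Camk2b most upstream: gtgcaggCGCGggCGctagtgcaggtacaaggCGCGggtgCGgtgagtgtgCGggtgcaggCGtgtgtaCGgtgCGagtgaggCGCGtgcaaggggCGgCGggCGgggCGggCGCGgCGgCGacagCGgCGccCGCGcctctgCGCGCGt

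The other 5 sequences are grouped by list. *Auts2* (chr5:132014558-132014707, minus strand, 21 CpG), *Ank2* (chr3:126928766-126928915, minus strand, 10 CpG) and *Ank3* (chr10:69248123-69248272, plus strand, 1 CpG) had H3K4me2-decreased internal promoters. *Kcnh2* (chr5:23835410-23835559, minus strand, 8 CpG) and *Mylk* (chr16:34900178-34900327, plus strand, 3 CpG) had H3K4me1-decreased ones. They are shown because these genes carry the results on both marks described further on, and the *Ank3* sequence shows that a CpG-poor internal promoter was also called lower in H3K4me2.
Auts2 internal: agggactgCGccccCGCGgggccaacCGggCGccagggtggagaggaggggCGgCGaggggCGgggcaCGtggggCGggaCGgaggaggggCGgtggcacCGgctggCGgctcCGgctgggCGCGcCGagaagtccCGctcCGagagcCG
Ank2 internal: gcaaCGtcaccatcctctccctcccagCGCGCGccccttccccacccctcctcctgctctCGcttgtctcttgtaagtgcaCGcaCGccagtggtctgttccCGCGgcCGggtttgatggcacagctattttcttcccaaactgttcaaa
Ank3 internal: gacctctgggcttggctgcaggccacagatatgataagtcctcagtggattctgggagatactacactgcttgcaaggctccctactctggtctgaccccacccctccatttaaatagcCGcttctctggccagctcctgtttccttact
Kcnh2 internal: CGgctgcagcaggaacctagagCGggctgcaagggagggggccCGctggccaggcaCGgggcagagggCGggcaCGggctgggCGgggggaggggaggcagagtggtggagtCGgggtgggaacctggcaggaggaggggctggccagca
Mylk internal: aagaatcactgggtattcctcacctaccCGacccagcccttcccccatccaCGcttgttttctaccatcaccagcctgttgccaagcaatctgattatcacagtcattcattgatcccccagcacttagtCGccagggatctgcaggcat

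Decreased H3K4me2 was found at 192 of 1627 internal promoters (11.8%, interval 10.3% to 13.5%). Over all merged regions 1.87% were in this list, and over merged regions of at least 1000 and under 8000 bp the background was 5.32%. Internal promoters lay above this background, though at 4000 bp or more their interval (15.6% to 22.6%) held the 16.4% of all such regions, and below main promoters, of which 2619 of 10054 were H3K4me2-decreased (26.05%, 25.2% to 26.9%). For decreased H3K4me1, internal promoters lay above main promoters. It was found at 43 internal promoters (2.64%, 1.97% to 3.54%), against 0.761% of all merged regions, 1.91% of merged regions in that width range and 52 main promoters (0.517%, 0.395% to 0.678%). By width, the internal and background shares were 2.11% and 1.103% under 2000 bp, 2.03% and 2.47% from there to 4000 bp, and 4.07% and 3.755% above. The intervals of the internal promoters in the 2 wider classes (1.19% to 3.45% and 2.62% to 6.27%) held the background. A single internal promoter, in *Gramd1b*, was in both lists.

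The difference between internal and main promoters was -14.25 percentage points for H3K4me2 (interval -16.0 to -12.4) and 2.13 points for H3K4me1 (1.43 to 3.03). Both directions were seen in each of 3 width classes. Among regions under 2000 bp, 26 of 521 internal promoters (4.99%) and 188 of 1854 main promoters (10.1%) were H3K4me2-decreased. Among those of 4000 bp or more, 88 of 467 (18.8%) and 1197 of 3472 (34.5%) were. For H3K4me1 the shares were 2.11% of internal and 0.324% of main promoters in the narrow class, and 4.07% and 0.835% in the wide class. Internal promoters were narrower than main promoters, with a median of 2720 bp against 3240 bp, and poorer in CpG. When main promoters were weighted to the internal promoters' widths and CpG classes together, an alternative chosen after seeing the data, the difference was -4.55 points for H3K4me2 and 1.43 points for H3K4me1.

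**Figure D1:**
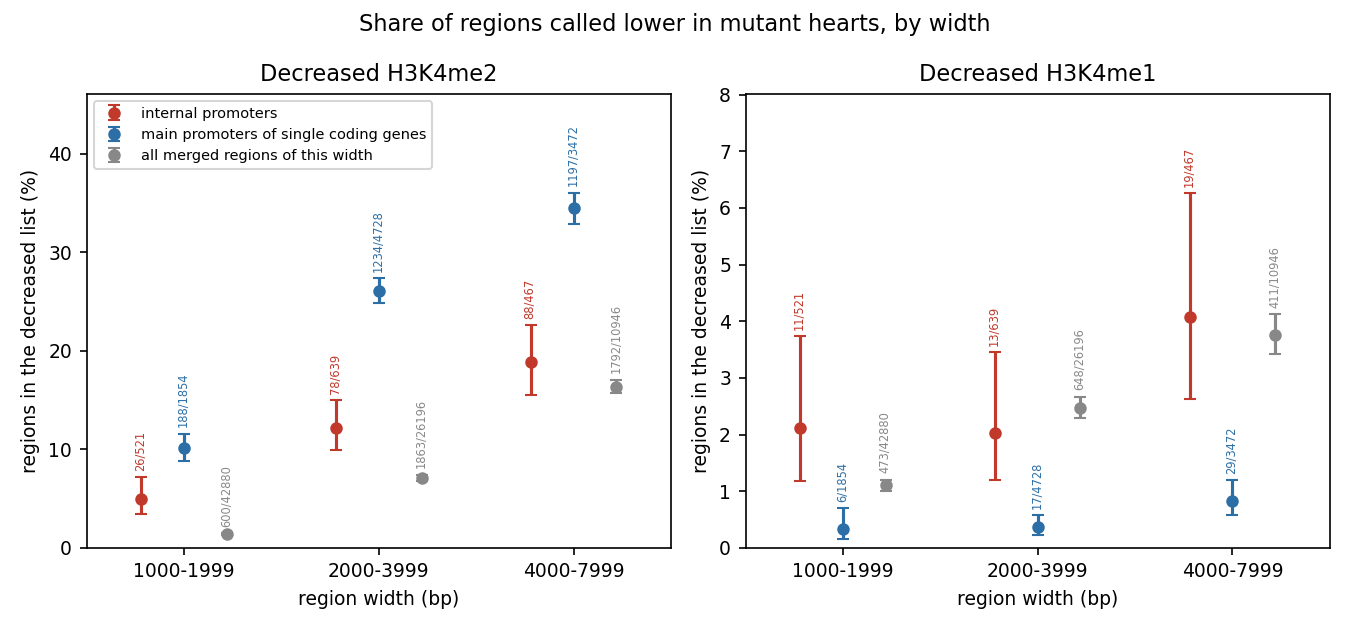
Share of regions in the H3K4me2-decreased (left) and H3K4me1-decreased (right) list in percent, for 3 classes of region width in bp. Points are internal promoters, main promoters and all merged regions of that width, bars are 95% Wilson intervals, and the counts stand above each point: in every class internal promoters lie below main promoters for H3K4me2 and above them for H3K4me1.

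CpG content separated the internal promoters of the 2 lists. It was measured as the CpG ratio, the number of CpG found over the number that the C and G content gives by chance, in the 300 bp from 250 bp before the TSS to 50 bp into the transcript. The median ratio was 0.684 (quartiles 0.405 and 0.879) in the 192 H3K4me2-decreased internal promoters, 0.216 (0.151 and 0.359) in the 43 H3K4me1-decreased ones and 0.348 in those in neither list. A ratio of 0.6 or more, as in CpG islands, was found at 106 of the 192 (55.2%) and at 2 of the 43 (4.65%), against 26.7% of all internal promoters. Main promoters had a median ratio of 0.715 over all, 0.819 where H3K4me2 was decreased and 0.289 where H3K4me1 was decreased. GC content alone was similar in both lists of internal promoters, with medians of 56.3% and 54.7%.

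**Figure D2:**
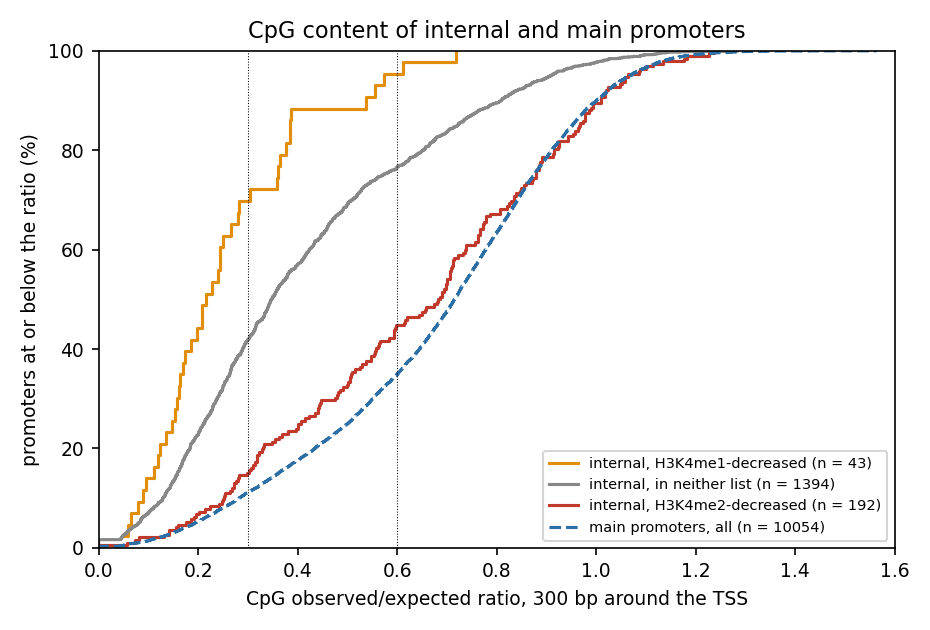
Cumulative share of promoters in percent (vertical axis) at or below each CpG ratio (horizontal axis) for H3K4me1-decreased, unlisted and H3K4me2-decreased internal promoters and for all main promoters. Dotted lines mark ratios of 0.3 and 0.6: the H3K4me1-decreased curve lies to the left, with a median of 0.216, and the H3K4me2-decreased curve runs near that of main promoters, with a median of 0.684.

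Read the other way, the share of internal promoters with decreased H3K4me2 was 29 of 642 (4.52%, interval 3.16% to 6.41%) below a ratio of 0.3, 57 of 552 (10.3%, 8.06% to 13.1%) from 0.3 to 0.6, and 106 of 434 (24.4%, 20.6% to 28.7%) at 0.6 and over. The share with decreased H3K4me1 ran the other way, at 30 of 642 (4.67%, 3.29% to 6.59%), 11 of 552 (1.99%) and 2 of 434 (0.461%, 0.127% to 1.66%). Main promoters showed the same order, from 7.38% to 33.1% for H3K4me2 and from 2.49% to 0.183% for H3K4me1. Within each CpG class the internal promoters lay below the main promoters for H3K4me2 and above them for H3K4me1. The intervals of internal and main promoters overlapped below 0.3 for both marks and at 0.6 and over for H3K4me1. Among regions under 2000 bp with a ratio below 0.3, internal and main promoters had nearly equal H3K4me2 shares (3.279% and 3.275%).

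**Figure D3:**
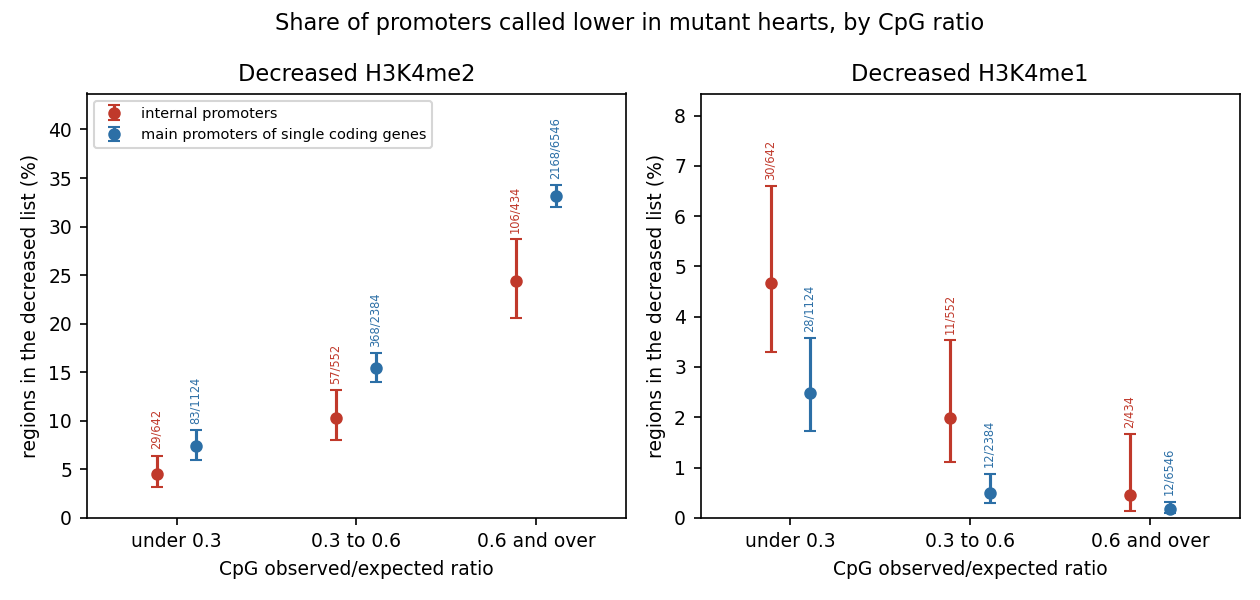
Share of internal and main promoters in the H3K4me2-decreased (left) and H3K4me1-decreased (right) list in percent, by CpG ratio class. Points carry 95% Wilson intervals and counts: the H3K4me2 share of internal promoters rises from 4.52% to 24.4% with the CpG ratio and the H3K4me1 share falls from 4.67% to 0.461%.

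Short promoter motifs were counted in the same 300 bp on either strand. The GC box letters GGGCGG, the binding motif of SP1-family factors, were present at 523 of 1628 internal promoters (32.1%), 103 of the 192 H3K4me2-decreased ones (53.65%), 14 of the 43 H3K4me1-decreased ones (32.6%) and 61.9% of main promoters. These letters themselves hold a CpG. The TATA box letters TATAAA were present at 9.46% of internal promoters, 6.25% of the H3K4me2-decreased and 13.95% of the H3K4me1-decreased ones. The CCAAT box letters CCAAT, bound by NF-Y, were present at 34.2%, 35.4% and 18.6%. Over the most upstream promoters of all coding genes the shares were 43.96% for the GC box, 13.4% for the TATA box and 37.9% for the CCAAT box.

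The promoter at the start of the same gene was examined next, to see whether both promoters of a gene were called lower together. It lay in a merged region in 1231 of the 1628 pairs. For H3K4me2, 42 of 323 internal promoters (13.0%, interval 9.77% to 17.1%) were decreased where the upstream promoter was also decreased, and 79 of 908 (8.70%, 7.04% to 10.7%) where it was marked but not in the list. Thus, of 121 H3K4me2-decreased internal promoters with a marked upstream promoter, 42 had both called lower (34.7%, 26.8% to 43.6%) and 79 were called lower at the internal promoter without the upstream one. Where the internal promoter was not in the list, 281 of 1110 upstream promoters were (25.3%, 22.9% to 28.0%).

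The highest H3K4me2 share, 71 of 397 (17.9%, interval 14.4% to 22.0%), was found where the most upstream TSS of the gene lay in no merged region. In 336 of these 397 pairs the internal promoter was the first marked promoter of its gene, counted from the upstream end, and 66 of the 336 were H3K4me2-decreased (19.6%, 15.75% to 24.2%). In 89 of them the unmarked TSS was within 1 kb of the region, and 12 of the 89 were decreased (13.5%). In the remaining 247 the share was 21.9% (17.2% to 27.4%). These internal promoters were richer in CpG, with a median ratio of 0.501 against 0.332 beside a decreased and 0.353 beside an unlisted upstream promoter. At a ratio of 0.6 and over, the shares were 19 of 58 (32.8%) beside a decreased upstream promoter, 42 of 211 (19.9%) beside an unlisted one and 45 of 165 (27.3%) with no marked upstream promoter. Below 0.3 they were 7 of 150 (4.67%), 11 of 376 (2.93%) and 11 of 116 (9.48%), and from 0.3 to 0.6 they were 13.9%, 8.10% and 12.9%. The last state thus had the highest share below 0.3 but not in the other CpG classes, whereas it had the highest share in each of the 3 width classes (7.94%, 17.65% and 33.3%). Beside a decreased upstream promoter the shares by width were 6.93%, 13.7% and 17.5%. The intervals of these states overlapped in each width class and below a ratio of 0.3.

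**Figure D4:**
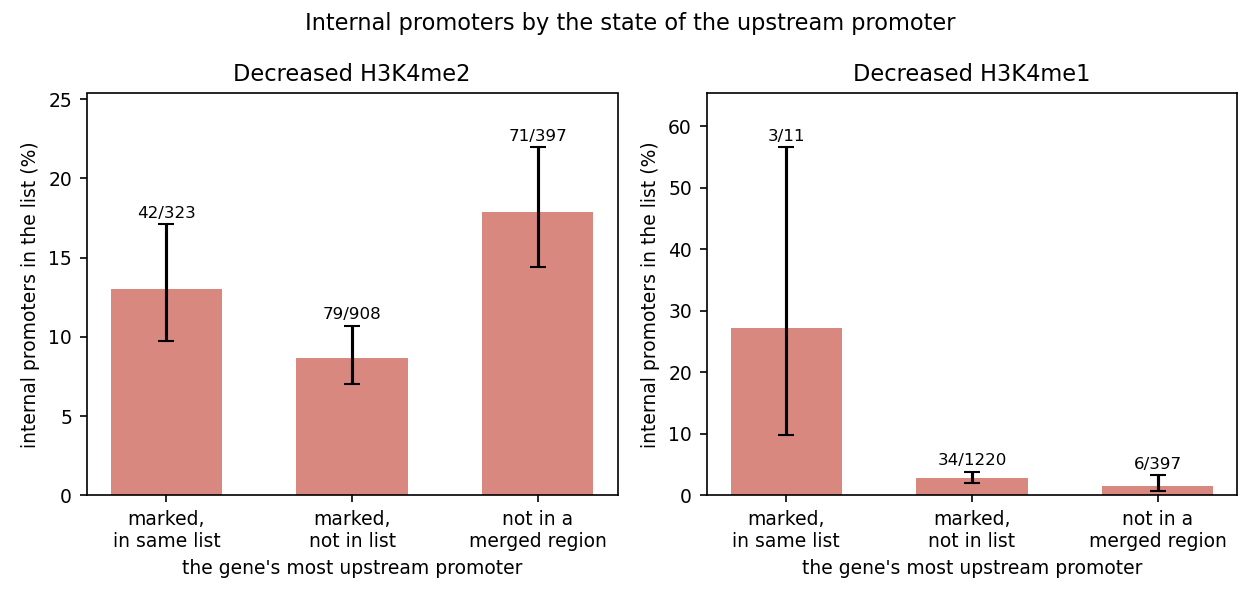
Share of internal promoters in the H3K4me2-decreased (left) and H3K4me1-decreased (right) list in percent, by whether the most upstream promoter of the gene was in the same list, marked but not in it, or in no merged region. Bars start at 0 and carry 95% Wilson intervals and counts: for H3K4me2 the lowest bar is 79 of 908 and the highest 71 of 397, and for H3K4me1 the first bar rests on 11 pairs.

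For H3K4me1, decreased upstream promoters were few. They were found in 11 of 1231 pairs (0.894%), and in 3 of these 11 the internal promoter was decreased as well (27.3%, interval 9.75% to 56.6%), against 34 of 1220 (2.79%, 2.00% to 3.87%) beside an unlisted and 6 of 397 (1.51%) beside an unmarked upstream TSS. Genes with both promoters H3K4me1-decreased included *Kcnh2* and *Iqsec1*, the latter named after its values were seen. A second internal promoter of *Iqsec1* (chr6:90712866-90715105), beside the same upstream promoter, was in neither list. The marks also met across promoters of a gene. Of 37 H3K4me1-decreased internal promoters with a marked upstream promoter, 10 had an upstream promoter that was H3K4me2-decreased (27.0%, 15.4% to 43.0%), close to the 26.2% of all pairs. The reverse, decreased H3K4me2 inside and decreased H3K4me1 upstream, was found in 0 of 121 pairs (upper limit 3.08%).

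*Kcnh2*, which encodes the ERG potassium channel and makes a shorter channel form from an internal promoter, was called lower on both sides. Its internal promoter (chr5:23833286-23837585, 4300 bp) lies in an intron 22.0 kb from the most upstream TSS and was H3K4me1-decreased. The upstream region (chr5:23839386-23860965, 21580 bp) was in both lists. It covers most of the distance between the TSS and nearly reaches the internal region, with 1 merged region between them. Whether the calls at these neighbouring regions are separate losses was not tested.

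At *Camk2b*, the H3K4me1-decreased internal promoter (chr11:5899186-5903845, 4660 bp) lies 65.3 kb into the gene. It was not the only such region there, as 2 of 22 merged regions along *Camk2b* were H3K4me1-decreased and 0 were H3K4me2-decreased. The other, 3980 bp wide, lies 33.4 to 37.4 kb from the most upstream TSS and holds no coding TSS. At *Mylk*, which encodes myosin light chain kinase and gives rise to long, short and telokin forms, the H3K4me1-decreased internal promoter (chr16:34899126-34902505, 3380 bp) lies 115 kb from a most upstream TSS that is in no merged region. A second internal promoter of *Mylk*, 2640 bp wide, was in neither list. The widest H3K4me1-decreased internal promoters were those of *Fam129b* (6840 bp), *Tnip1* (6720 bp), *Slc43a2* (6700 bp), *Samd4* (6620 bp) and *Arap1* (6620 bp). *Tnip1* encodes a partner of the inflammation inhibitor A20, *Slc43a2* an amino acid transporter and *Samd4* an RNA-binding protein. Their CpG ratios ran from 0.124 in *Slc43a2* to 0.719 in *Tnip1*, and the upstream promoters of *Fam129b* and *Samd4* were H3K4me2-decreased.

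Among H3K4me2-decreased internal promoters, several lay far inside large genes. *Ank3*, which encodes ankyrin-G, a protein that anchors membrane channels to the cytoskeleton, had 2 (chr10:69245746-69252505, 6760 bp, and chr10:69384706-69391905, 7200 bp), 251 and 391 kb from a marked upstream promoter that was in no list. *Mast4*, a microtubule-associated kinase gene, also had 2 (chr13:103883466-103888965, 5500 bp, and chr13:103692286-103697565, 5280 bp), 238 and 428 kb from an unlisted upstream promoter, and the transcript at the first is annotated with an incomplete start. A further coding TSS of *Mast4*, 376 kb from the most upstream one, lies in a region of 8280 bp. That region is above the width limit and was in neither list. *Ank2*, which encodes ankyrin-B, differed from *Ank3* and *Mast4*. Its H3K4me2-decreased internal promoter (chr3:126928426-126929465) was 1040 bp wide, its upstream promoter 183 kb away was also decreased, and 2 further internal promoters were in neither list. At *Ank3*, a separate region close to the unlisted upstream promoter was also H3K4me2-decreased. It was 1660 bp wide and lay at -6.164 to -4.505 kb from the most upstream TSS.

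*Runx1* and several regulators of transcription followed the same pattern of an internal call without an upstream one. The *Runx1* internal region (chr16:92694346-92700665, 6320 bp) holds 3 coding TSS 129 kb from a most upstream promoter of 1600 bp that was not in a list, with a CpG ratio of 1.01. *Smarca2*, which encodes the chromatin remodeller BRM (chr19:26820886-26824925, 4040 bp, 143 kb), and *Cacnb2*, a calcium channel subunit gene (chr2:14742446-14747245, 4800 bp, 220 kb), had unlisted upstream promoters too. *Crem*, whose internal promoter is known to make the repressor ICER, had an H3K4me2-decreased region of 1700 bp with 6 coding TSS, 56.0 kb from an unlisted upstream promoter. *Tcf4*, which encodes an E-protein transcription factor, was called lower at both ends, with an internal region of 7140 bp and an upstream region of 9280 bp that lie 249 kb apart by their TSS. *Camk2a* and *Dclk1*, both kinase genes, had H3K4me2-decreased internal promoters 37.9 and 219 kb from unlisted upstream promoters. Their widths were 5260 and 1040 bp. The study reports lower *Camk2a* RNA in mutant hearts, tested by qRT-PCR. The decreased calls are the study's own and are not independent evidence for its findings.

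**Figure D5:**
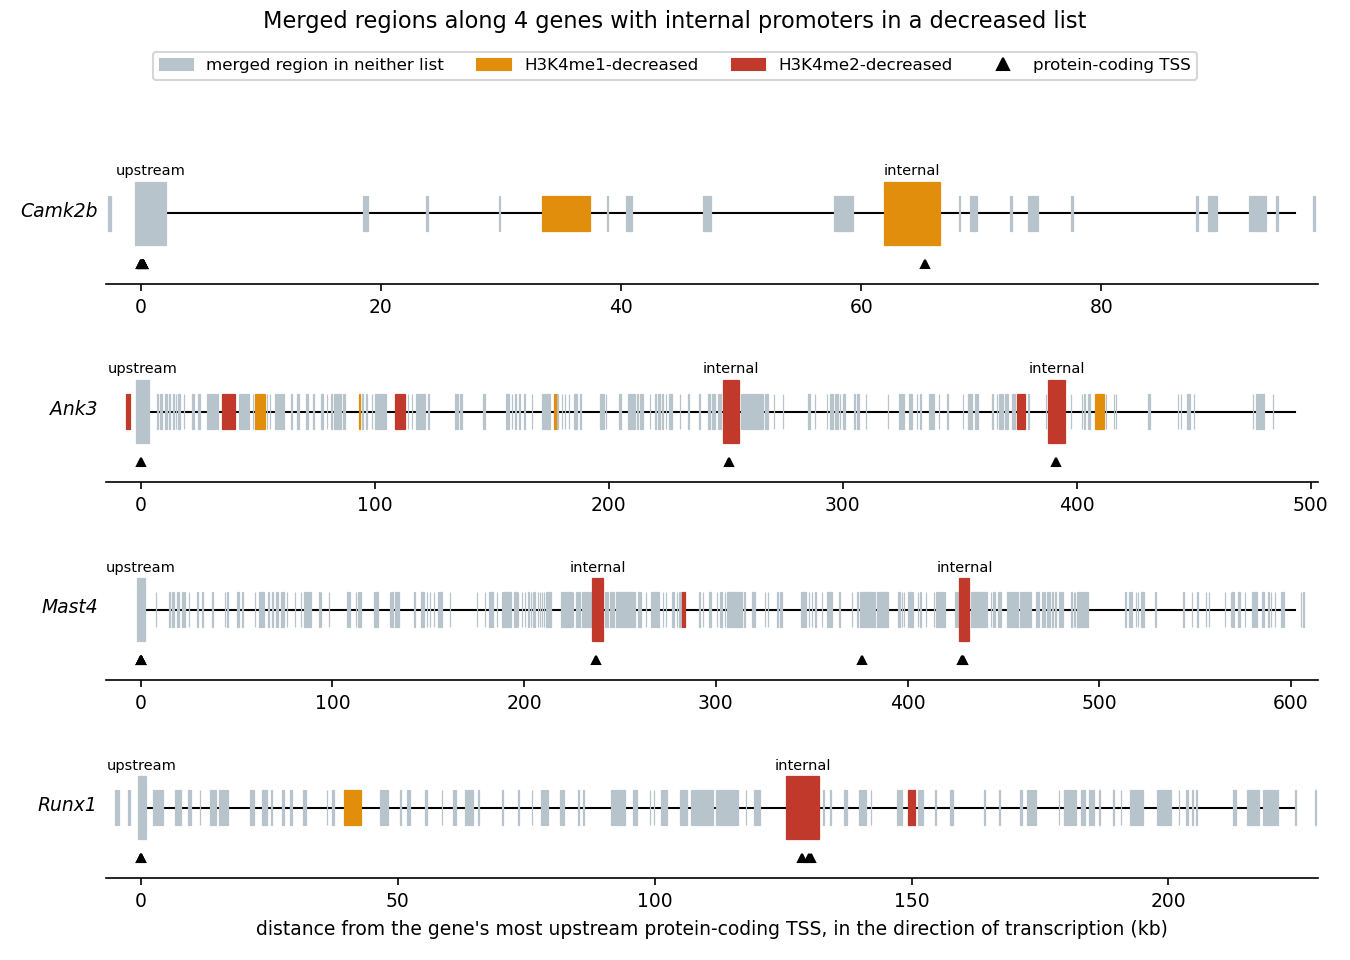
Merged regions along *Camk2b*, *Ank3*, *Mast4* and *Runx1*, drawn to scale as boxes by distance in kb from the most upstream coding TSS, in the direction of transcription. Colour gives the decreased list, taller boxes mark the upstream and internal promoters and triangles the coding TSS: in each gene the upstream box is grey and the internal boxes are coloured. The *Mast4* TSS at 376 kb lies in a grey region of 8280 bp, above the width limit for internal promoters.

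The distance between the promoters of a gene varied widely among the decreased ones. The most distant H3K4me2-decreased ones beside an unlisted upstream promoter were in *Etl4* (610 kb), *Kalrn*, a guanine nucleotide exchange factor gene (477.5 kb), *Mast4*, *Ank3* and *Syne1*, which encodes the nuclear envelope protein nesprin-1 (356 kb). Beside a decreased upstream promoter they were in *Auts2* (1003 kb), *Tcf4*, *Ank2*, *Rasal2*, a Ras GTPase-activating protein gene (181 kb), and *Sgms1*, a sphingomyelin synthase gene (177.5 kb). The median distance was 20.2 kb for H3K4me2-decreased, 26.95 kb for H3K4me1-decreased and 23.7 kb for unlisted internal promoters. By distance, H3K4me2 was decreased at 39 of 252 within 5 kb (15.5%, interval 11.53% to 20.5%) and at 10.7% to 11.6% in the 3 classes beyond. The widest H3K4me2-decreased internal promoters were those of *Ncrna00085* (7740 bp), *Sept7*, a septin gene (7720 bp), *Lin28b*, whose product blocks let-7 maturation (7700 bp), *Cpeb3*, which encodes an mRNA-binding regulator of translation (7560 bp), and *Fam49b* (7480 bp). At *Sept7* the most upstream TSS lay in no merged region, only 3.965 kb from the internal TSS, and the internal CpG ratio was 1.18. The upstream promoters of the other genes in this ranking were in neither list.

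Other merged regions between the promoters of a gene were counted as well. Where the internal promoter was H3K4me2-decreased, 12 of the 515 other merged regions of this width range between it and the marked upstream promoter were in the same list (2.33%, interval 1.34% to 4.03%), and 47 of 3717 (1.26%, 0.952% to 1.68%) where it was not. For H3K4me1 the counts were 9 of 147 (6.12%, 3.25% to 11.2%) and 98 of 3875 (2.53%, 2.08% to 3.07%). Over all merged regions of this width range the shares were 5.32% and 1.91%. That background holds promoters, and 2619 of its 4255 H3K4me2-decreased regions were main promoters. Internal promoters were left out of the regions between. The shares are therefore over unlike sets of regions, and no contrast with the background is drawn for either mark. Along *Ank3*, 6 of 127 merged regions were H3K4me2-decreased and 4 were H3K4me1-decreased. The 6 include the 2 internal promoters and a region before the most upstream TSS. Along *Mast4* the counts were 3 and 0 of 168, and along *Runx1* they were 2 and 1 of 76.

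Of the 1398 genes, 178 held at least 2 internal promoters. In 146 of these 178 genes no internal promoter was H3K4me2-decreased, in 28 a single one was, and in 4 there were 2: *Ank3*, *Mast4*, *Gramd1b* and *Atp2c1*. *Atp2c1* encodes a Golgi calcium and manganese pump, and both its internal promoters (5280 and 6440 bp) were decreased while its most upstream TSS lay in no merged region. *Gramd1b*, which encodes a sterol transfer protein of the endoplasmic reticulum, held 3, and the one in both lists (chr9:40151526-40154865, 3340 bp) lies 185 kb from an unlisted upstream promoter. For H3K4me1, 164 genes had none, 12 had 1 and 2 genes had 2, *Tcfeb* among them. *Tcfeb*, which encodes a regulator of lysosomal genes, held 5 internal promoters, all below a CpG ratio of 0.3, and its upstream promoter was H3K4me2-decreased. *Atp2c1* and *Tcfeb* were named after their values were seen.

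The gene lists chosen for heart biology gave small counts. Of 49 annotated sarcomere and cytoskeletal scaffold genes, 13 held 22 internal promoters, of which 3 were H3K4me2-decreased (*Ank3* with 2, and *Ank2*) and 1 was H3K4me1-decreased (*Mylk*). Of 61 transcription factor genes, 19 held 23, with 3 H3K4me2-decreased (*Runx1*, *Crem* and *Tcf4*) and 0 H3K4me1-decreased. Of 53 kinase, phosphatase and signalling genes, 25 held 35, with 4 H3K4me2-decreased (*Mast4* with 2, *Camk2a* and *Dclk1*) and 1 H3K4me1-decreased (*Camk2b*). Of 26 ion channel and transporter genes, 7 held 11, with 1 H3K4me2-decreased (*Cacnb2*) and 3 H3K4me1-decreased (*Kcnh2* among them). Of 36 chromatin regulator genes, 7 held 8, with 1 H3K4me2-decreased (*Smarca2*) and 1 H3K4me1-decreased. The 4 internal promoters of imprinted genes, the 4 of endothelial markers and the 1 of a blood marker were in neither list, and cardiomyocyte and epicardial markers held 0. The decreased counts stand beside the 11.8% and 2.64% over all internal promoters and are too small to set a list apart. Among all coding genes, 6.25% held an internal promoter. The lists were chosen with earlier results of these data known, so a higher share in a list is not a finding about heart genes.

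The kind of transcript that starts at the internal promoter was compared last. In 806 of 1628 pairs the internal transcript had a start codon of its own, in 667 it shared the start codon of a transcript from further upstream, and in 155 none was annotated. H3K4me2 was decreased at 90 of 806 regions with their own start codon (11.2%, interval 9.17% to 13.5%) and at 96 of 666 with a shared one (14.4%, 11.95% to 17.3%). An internal TSS inside an exon of an upstream-starting transcript was found in 323 pairs. Of these regions 23 were H3K4me2-decreased (7.12%, 4.79% to 10.5%), against 169 of 1305 with an intronic TSS (12.95%, 11.2% to 14.9%). Regions with 2 or more coding TSS were H3K4me2-decreased in 96 of 542 cases (17.7%, 14.7% to 21.1%) and those with 1 in 96 of 1085 (8.85%, 7.30% to 10.7%). For H3K4me1 these shares ranged from 2.10% to 3.87%. The annotation marks the mRNA start as incomplete at 153 internal promoters, where 6 were H3K4me2-decreased (3.92%) and 6 H3K4me1-decreased.

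The width limits fell within a continuous range. The regions next to the lower limit were in *Nfasc* (980 bp, outside) and *Anks1b* (1000 bp, inside), and those next to the upper limit were in *Pdcd4* (7980 bp, inside) and *Ston2* (8000 bp, outside). None of these 4 was in a decreased list.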

How the data were processed

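The authors' deposited files were 3 lists of regions (coordinates in bp and no other value): merged peaks of H3K4me1, H3K4me2 and H3K4me3 from heart ChIP-Seq, and the 2730 and 6699 of them called H3K4me1- and H3K4me2-decreased. The 24 heart libraries comprised those of the 3 marks and input DNA of both genotypes. Per the submitters' processing notes CASAVA 1.8.2, FastQC, Bowtie2, Bowtie and SAMtools were used with build mm9. How peaks were called and how decreased regions were tested is not given in the sources used here. The deposited H3K4me2-decreased list does not have the number of regions that the study states for its threshold, so whether the list follows that threshold exactly is not known. KMT2D ChIP-Exo data and changes in H3K4me3 were not analysed here.

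Regions were classified in Python 3.11.15 with numpy 2.4.6 and drawn with matplotlib 3.10.9. The classification was tested on simulated regions. A TSS was the start of a protein-coding transcript of a protein-coding gene in GENCODE vM1, and the last region of each chromosome ended within the length of that NCBIM37 chromosome. List membership required identical coordinates. CpG ratio and motifs were taken from the TSS used, the most upstream in the region. Printed coordinates are 1-based.

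The rule for internal promoters, the gene lists and the genes to name were chosen with earlier results of these data known. Named were listed genes with a decreased internal promoter, genes in both lists, the 5 widest per list, the 5 farthest H3K4me2-decreased ones with and without a decreased upstream promoter, genes the study names, and the nearest region to each width limit. Genes named outside this rule are marked as such. Some genes chosen by the rule are not reported here, though they stay in the counts. Alternatives changed the width window, the TSS used, the match of regions, the distance to the upstream TSS and the weighting by width or by width and CpG ratio.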

Additional observations from a re-analysis of the deposited data

How the results depend on the processing

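Each of 6 results was recomputed, giving 54 values under alternatives. Of these, 47 lay within the interval of the main result and 7 moved outside it. Only the differences between internal and main promoters could change direction, and 0 of them did. The other results are shares, which have no direction to change. Matching by an overlap of at least 1 bp returned the main values, since every decreased region is itself a merged region. These values are counted among the 47 although they could not have differed. The share of internal promoters with decreased H3K4me2 was 10.28% when regions from 500 bp on were taken in, 15.01% when they had to reach 2000 bp, and 8.552% when TSS of all transcripts of coding genes were used, which also raised the number of internal promoters to 2818. The H3K4me2 difference from main promoters was -17.4 percentage points with all transcripts, -11.59 within 3 width classes, and -4.546 within 3 width classes by 3 CpG classes. Under the last weighting, chosen after seeing the data, the H3K4me1 difference was 1.43 points. The cause of these shifts was not tested. The share with decreased H3K4me1 ranged from 2.279% to 2.981%, and the share of H3K4me2-decreased internal promoters whose upstream promoter was also decreased from 33.33% to 36.79%. For H3K4me1 the latter ranged from 3.846% to 10.34% and rests on few pairs, 1 of 26 at the low end and 3 of 29 at the high end. No paired analysis was possible because the lists hold no replicate values, and for the same reason no replicate could be left out. The depth behind a region is unknown, so an uncalled region sets no limit on its change.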
